A study of Mus musculus with 416 samples.

Results

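The regions described here are 1716 bins of 50 kb on the mouse autosomes that were replicated in at least an average share of control cells at the 4-cell stage and in far fewer than average at the morula stage. They make up 3.73% of the 46015 bins that could be used, of 49264 in the tables, and cover 85.8 Mb. For each bin, the percent of a group's cells with a state there that were replicated was centred by subtracting that group's mean over the used bins. The result, in percentage points, is called the centred share. A used bin had at least 10 measured cells in all 6 groups. The members were chosen by 2 of the 6 values of a bin: a centred share of 0 or more in control cells of the 4-cell stage, and of -15 points or less in control cells of the morula stage. Those 2 values are therefore no finding. The control cells of the 8-cell stage and all cells that had received the siRNA against Rif1 took no part in the choice.

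The cells were blastomeres, separated from (C57BL/6J xCBA) x DBA/2J embryos and each measured alone. Zygotes were injected, 17 to 18 hours after hCG, with 20 µM of an siRNA against Rif1 (siRif1) or of a control siRNA (siCont), and grown in KSOM medium to the 4-cell, 8-cell or morula stage. The tables held 51 siRif1 and 49 siCont cells of the 4-cell stage, 50 siRif1 and 60 siCont cells of the 8-cell stage, and 45 siRif1 and 44 siCont cells of the morula stage, 299 of 416 labelled cells. The tables hold no measure of how far Rif1 was depleted, and every embryo, control included, had been injected. The labels name no embryo, litter or injection day for a cell, so each group counts as 1 sample, no test was run and no p-value is given. With these numbers of cells, counting error alone gives the share at a single member bin an SD of 6.01 to 7.13 points.

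The percent of used bins replicated in a cell had a median of 51.4 in siRif1 and 43 in siCont at the 4-cell stage. At the 8-cell stage it was 43.4 in siRif1 and 48.5 in siCont, and at the morula stage 47 in siRif1 and 47.6 in siCont. No siRif1 cell of the 8-cell stage was past 66.5%, while the furthest siCont cell of that stage was at 97.4%. When the cells of each group were balanced over S phase and the rule applied anew, none of the mean shares given below for cells outside the rule differed by more than the spread between autosomes. The balance gave equal weight to those of 4 ranges of 25% replicated in which a group had cells. The siRif1 8-cell group had 0 cells in the highest range, and the siCont morula group had 0 in the lowest. The groups therefore could not be made alike in these ranges.

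Cells of a group did not form one set. Values at the members tended to be alike among cells with neighbouring numbers in the labels. The labels do not state what the numbers stand for, and their part in the results was not tested. Each group was therefore also split, after the data were seen, into the lower-numbered and the higher-numbered cells. At the 8-cell stage the members lagged behind all used bins of their cell in 22 of 25 lower-numbered siRif1 cells and in 8 of 25 higher-numbered ones, and in 26 of 30 lower-numbered and 24 of 30 higher-numbered siCont cells. Their mean centred share there was -15.1 and 3.82 points in the lower-numbered and higher-numbered siRif1 cells, against -17.2 and -11.7 in the siCont cells. At the 4-cell stage it was 4.33 and -8.88 in siRif1, against 7.44 and -1.65 in siCont, and at the morula stage -10.9 and -13.4 in siRif1, against -28.2 and -23.4 in siCont. The siRif1 means of the 4-cell and 8-cell stages given below thus average cells that stand apart. Some of the results that rest on them are given with the split values. The others are given without, and describe only the average over all cells of a group.

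A cell copies its genome in a fixed order during S phase: gene-rich, open chromatin is as a rule copied early, and gene-poor, compact chromatin late. In mouse embryos this order is known to become sharper over the first cleavages. RIF1 is a chromatin protein that binds late-replicating regions and recruits protein phosphatase 1, which counteracts the kinase that fires origins.

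The bins are long stretches with few genes, and the only DNA sequence at hand within them is that of promoters. Of the genes with a promoter inside the 12 longest domains, the 2 with the most and the 2 with the fewest CpG dinucleotides are shown, because they mark the range of promoters that these regions hold. Each runs from 250 bases before to 50 bases after the gene's start, is credited to RefSeq (assembly GRCm38.p6) and is printed 5′ to 3′ on the strand of the gene, with every CG in capitals. A CG reads the same on both strands.
Slit2, chr5:47982905-47983204, plus strand: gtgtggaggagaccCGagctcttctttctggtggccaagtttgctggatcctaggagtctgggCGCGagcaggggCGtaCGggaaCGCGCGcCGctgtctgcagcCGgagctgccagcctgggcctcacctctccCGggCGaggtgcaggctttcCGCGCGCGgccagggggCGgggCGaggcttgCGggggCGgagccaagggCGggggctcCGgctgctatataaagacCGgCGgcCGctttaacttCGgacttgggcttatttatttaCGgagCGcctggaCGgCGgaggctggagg
Tmeff2, chr1:50927273-50927572, plus strand: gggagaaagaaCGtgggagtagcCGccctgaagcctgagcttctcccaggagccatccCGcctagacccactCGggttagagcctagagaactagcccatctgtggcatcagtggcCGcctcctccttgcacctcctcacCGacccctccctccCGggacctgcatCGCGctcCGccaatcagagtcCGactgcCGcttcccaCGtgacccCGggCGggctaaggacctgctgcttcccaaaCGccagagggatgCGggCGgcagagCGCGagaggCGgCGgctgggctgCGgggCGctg
Kcnj16, chr11:110967783-110968082, plus strand: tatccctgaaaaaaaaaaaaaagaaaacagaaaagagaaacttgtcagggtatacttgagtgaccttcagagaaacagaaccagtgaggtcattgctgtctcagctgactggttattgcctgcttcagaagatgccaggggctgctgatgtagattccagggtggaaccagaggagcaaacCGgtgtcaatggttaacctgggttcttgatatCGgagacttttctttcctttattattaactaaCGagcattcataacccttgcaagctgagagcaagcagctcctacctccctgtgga
Anxa1, chr19:20390622-20390921, minus strand: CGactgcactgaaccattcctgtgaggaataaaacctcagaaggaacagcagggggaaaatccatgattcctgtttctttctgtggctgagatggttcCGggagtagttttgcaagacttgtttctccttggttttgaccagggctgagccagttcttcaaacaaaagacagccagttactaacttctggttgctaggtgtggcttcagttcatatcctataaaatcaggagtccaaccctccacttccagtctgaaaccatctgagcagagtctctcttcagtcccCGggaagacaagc
The Slit2 promoter holds 30 CpG in 300 bases and 68% G and C, and that of Tmeff2 holds 24 CpG. The Kcnj16 and Anxa1 promoters hold 3 each. The member bins thus contain promoters of both the CpG-rich and the CpG-poor kind. Over the 114 promoters at hand whose gene starts in a member bin, 61 (53.5%) hold 10 or more CpG. The share is 61.7% over the 15465 promoters in all used bins, and 18.2% over the 1683 promoters in bins late at both control stages, that is below 0 at the 4-cell stage and at -15 points or less at the morula stage in siCont cells. A promoter entry was at hand for 132 of the 164 member genes on the chromosomes used for promoters (80.5%).

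In control cells the members were already well below average at the 8-cell stage. The centred share of the members averaged -14.4 points in siCont 8-cell embryos (median -15.9; SD of 3.83 over the means of 19 autosomes, which are parts of the same cells and no replicates). The control values that chose the members were on average 2.99 at the 4-cell stage and -25.8 at the morula stage. In uncentred terms, a member bin was replicated in 49.5%, 34.8% and 23.6% of siCont cells at the 4-cell, 8-cell and morula stages. By the 8-cell stage, 1580 members (92.1%) were below the average of all bins, against 47.2% of all used bins. At -15 points or less were 860 members (50.1%), against 27.6% of all used bins. The mean was below 0 on all 19 autosomes.

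Over all siRif1 cells the mean of the members was also lower at each later stage, by smaller steps than in siCont cells. Their members averaged -2.16 points (SD 3.62 over autosomes) at the 4-cell stage, -5.59 (SD 3.53) at the 8-cell stage and -12.1 (SD 3.35) at the morula stage. The mean difference between morula and 4-cell was -9.98 points in siRif1 cells (median -10.5, SD 4.56 over autosomes), and it was negative on 18 of 19 autosomes, all but chromosome 17, which held 2 members. The siRif1 step between the 4-cell and 8-cell stages was -3.44 points, and the step between the 8-cell and morula stages was -6.55 points. The siCont steps were -17.4 and -11.4 points; each of these shares one value with the choice of members. The timing of the siRif1 difference depended on the cells: the steps were -19.4 and 4.14 points in the lower-numbered siRif1 cells and 12.7 and -17.2 points in the higher-numbered ones. Between morula and 4-cell the siRif1 difference was -15.3 points in the lower-numbered and -4.53 in the higher-numbered cells. The siCont differences, -35.6 and -21.8 points, are made of the values that chose the members, so their larger size is no finding. In siRif1 cells the members were replicated in 48.3%, 37.4% and 37.8% of cells at the 3 stages.

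**Figure D1:**
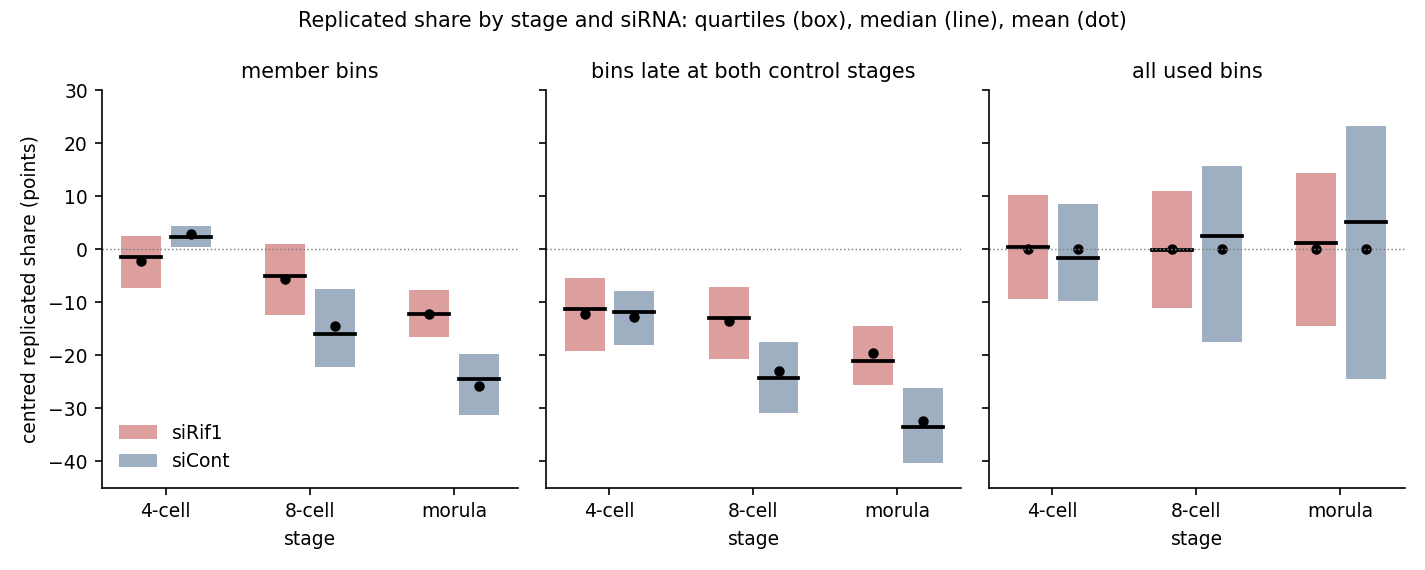
Centred replicated share (points, y axis) by stage (x axis) in siRif1 (red, left) and siCont cells (blue, right), with boxes from the first to the third quartile over bins, lines at the median and dots at the mean. Left panel, the 1716 members, with means of -5.59 in siRif1 and -14.4 in siCont at the 8-cell stage; middle, 13427 bins late at both control stages; right, all 46015 used bins. The narrow siCont box at the 4-cell stage and the upper limit of that at the morula stage in the left panel are set by the rule.

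Counted bin by bin, 712 members (41.5%) were at or above 0 in siRif1 4-cell cells, against 50.3% of all used bins. At the 8-cell stage 1255 members (73.1%) were below 0 in siRif1 cells, against 50.2% of all used bins, but only 331 (19.3%) were at -15 points or less, against 18.9% of all used bins. That share was 55.2% of members against 30.6% of all used bins in the lower-numbered siRif1 cells, and 5.13% against 13.5% in the higher-numbered ones. At the morula stage 1595 members (92.9%) were below 0 in siRif1 cells, against 48.2% of all used bins, and 580 (33.8%) were at -15 points or less, against 22.8%. The siRif1 difference between morula and 4-cell was below 0 at 1471 members (85.7%), against 51.5% of all used bins. It was -15 points or less at 511 members (29.8%), against 10.3%. Both criteria of the rule, applied to siRif1 cells, were met by 171 members (9.97%), against 1.77% of all used bins.

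At the 8-cell stage, where neither group took part in the choice, siRif1 cells were 8.81 points above siCont cells on average at the members (SD 4.39 over autosomes), a gap that rested on the higher-numbered siRif1 cells. The lower-numbered siRif1 cells differed by 2.10 points from the lower-numbered and by -3.41 from the higher-numbered siCont cells. The higher-numbered siRif1 cells differed by 21 points from the lower-numbered and by 15.5 from the higher-numbered siCont cells. With cells balanced over S phase and members chosen anew the gap was 5.51 points. Over all cells the difference was positive on 18 of 19 autosomes. On chromosome 19 it was -0.274 points over 41 members, and on chromosome 5 it reached 17.5 points over 70 members. It was above 0 at 1395 members (81.3%), against 52.1% of all used bins, and 15 points or more at 455 (26.5%), against 11.1%. This gap was no larger at the members than in other late bins. In the 13427 bins late at both control stages, siRif1 cells were 9.55 points above siCont cells at the 8-cell stage, and between -0.187 and 19.2 points over the pairings of lower-numbered and higher-numbered cells. In the 20916 bins at or above 0 at the 4-cell stage that were above -15 at the morula stage, the mean difference was -6.05 points. At the morula stage siRif1 exceeded siCont by 13.7 points at the members and by 12.9 points in bins late at both stages, with control values that the rule used in both.

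The siRif1 difference between morula and 4-cell averaged -9.98 points at the members, -7.35 (SD 3.43 over autosomes) in bins late at both control stages, and 3.04 in bins at or above average at the 4-cell stage and not late at the morula stage. The members and the late bins differed here by less than the spread between autosomes, and had -15.3 and -11.7 in the lower-numbered and -4.53 and -2.84 in the higher-numbered siRif1 cells. These 3 sets were drawn by control values, and no siRif1 value was used. The sets had different siRif1 values at the 4-cell stage, -2.16 at the members, -12.2 in the late bins and 10.1 in the others.

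At the 8-cell and morula stages, shares in siRif1 cells were spread less widely over the genome than in controls. The SD over all used bins was 14.7 in siRif1 and 19.8 in siCont at the 8-cell stage. It was 17.3 in siRif1 and 25.8 in siCont at the morula stage. At the 4-cell stage this SD was nearly level, and slightly larger in siRif1 than in siCont cells. Ranks among all bins, which do not carry that spread, gave another view of the members. Their median percentile rank, with 0 for the latest bin, was 46.9, 38.4 and 28.1 at the 3 stages in siRif1 cells, against 59.7, 26.4 and 24.5 in siCont cells. By rank the members of all cells were earlier in siRif1 than in siCont at the 8-cell stage, where the siRif1 cells stand apart by number, and at the morula stage the ranks of both groups were close. The siCont ranks at the 4-cell and morula stages come from the values that chose the members.

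The place of the members at the 4-cell stage depended in part on which control cells were used to choose them. A single siCont cell of that stage is worth 2.04 points, and 710 members (41.4%) would fail the rule with 1 replicated cell fewer. The rule was therefore applied to the odd-numbered cells alone and the values were read in the even-numbered cells, and the reverse. The 1895 bins chosen in odd-numbered siCont cells had mean centred shares of -6.0, -15.1 and -30.5 at the 3 stages in the even-numbered siCont cells. The 2290 bins chosen in even-numbered siCont cells had -3.70, -14.4 and -18.4 in the odd-numbered ones. In both splits such bins were already below average at the 4-cell stage in the siCont cells that did not choose them. Neighbouring numbers fall into both sets of this split, so the sets are not independent of each other. A split into lower-numbered and higher-numbered cells, made after the data were seen, gave 4423 bins chosen in the lower-numbered cells, with -9.24, -13.9 and -23 points in the higher-numbered siCont cells. It gave 825 bins chosen in the higher-numbered cells, with 0.640, -10.9 and -18.2 points in the lower-numbered siCont cells. Such bins were lower at each later stage in all 4 of these readings of siCont cells, and below average at the 4-cell stage in 3. The wording that they switch to late holds for the cells that chose them; in other siCont cells they were near or below average at the 4-cell stage and late at the morula stage.

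Set against controls read in the same way, siRif1 cells had the smaller difference between stages. The mean difference between morula and 4-cell in cells not used for the choice was -9.59 in siRif1 against -24.5 in siCont for bins chosen in odd-numbered cells. It was -8.55 in siRif1 against -14.7 in siCont for bins chosen in even-numbered cells. Both criteria were met in the unused cells at 8.39% of these bins in siRif1 and 18.8% in siCont for the first choice, where 2.32% of all used bins met them in siRif1 and 4.98% in siCont. For the second choice they were met at 9.96% in siRif1 and 15.5% in siCont, where 2.58% of all used bins met them in siRif1 and 4.12% in siCont. With bins chosen in lower-numbered cells the difference was -3.49 in siRif1 against -13.8 in siCont, and with bins chosen in higher-numbered cells -10.9 in siRif1 against -18.9 in siCont. The siRif1 cells of this comparison were split by number too, although none had taken part in the choice.

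Members that were later in siCont 8-cell embryos had lower siRif1 medians at every stage. The 860 members at -15 points or less in siCont 8-cell cells had siRif1 medians of -5.36, -11.0 and -14.4 at the 4-cell, 8-cell and morula stages. The 720 members between -15 and 0 (42% of all members) had 0.523, -3.02 and -9.98. The 136 members still at 0 or more (7.93%) had 4.44, 2.98 and -5.53. This last set, the last to be late in controls, was still above average in siRif1 8-cell embryos and below it at the morula stage. The share of members at -15 or less in siRif1 morula cells was 46.4%, 23.1% and 11% in the 3 sets, against 22.8% of all used bins. The second set was thus near the share of all used bins, and the last was below it.

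The threshold values show that the edge of the rule is gradual. The 225 members within 2.5 points inside the morula threshold had medians of 0.979 in siRif1 and -4.20 in siCont at the 8-cell stage. The 259 bins just outside it had 0.979 in siRif1 and -5.87 in siCont. At the 4-cell threshold, 1135 members lay within 2.5 points inside, with 8-cell medians of -7.02 in siRif1 and -15.9 in siCont. The 893 bins just outside had -9.02 in siRif1 and -17.5 in siCont.

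Cell by cell, the members were compared with all used bins of the same cell. The median cell had replicated its members less than its used bins by -1.90, -6.56 and -8.89 points in siRif1 at the 3 stages. In siCont the medians were 6.18, -13.4 and -25.7 points, the first and last from cells that chose the members. The members lagged in 30 of 51 siRif1 against 16 of 49 siCont cells at the 4-cell stage, in 30 of 50 siRif1 against 50 of 60 siCont cells at the 8-cell stage, and in 37 of 45 siRif1 against 43 of 44 siCont cells at the morula stage. A lag of more than 10 points was seen in 20 of 50 siRif1 and 37 of 60 siCont cells of the 8-cell stage. The siRif1 8-cell cells had values between -37.8 and 18.9 points. The lower-numbered ones had a median of -14.4, and the higher-numbered ones a median above 0, while the siCont medians were -18.6 and -11.9.

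At the morula stage the lag differed with how far a cell was in S phase, in opposite directions in the 2 groups. Among siRif1 morula cells the median was -18.2 points in 24 cells that were between 20 and 50% replicated, and -5.43 in 19 cells between 50 and 80%. Among siCont morula cells it was -25.9 in 23 cells of the first range and -31.0 in 19 of the second. In the second range the median morula cell had replicated 53.4% of the members in siRif1 and 28.5% in siCont. At the 8-cell stage the medians were -4.52 in siRif1 and -13.3 in siCont for the first range, and -8.69 in siRif1 and -20.7 in siCont for the second. At the 4-cell stage they were -3.21 in siRif1 and 4.43 in siCont for the first range, and 2.19 in siRif1 and 9.71 in siCont for the second. At these earlier stages both groups differed in the same direction between the ranges. The siCont cells of the 4-cell and morula stages chose the members, so the level of their values is no finding. These differences between ranges were not tested.

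**Figure D2:**
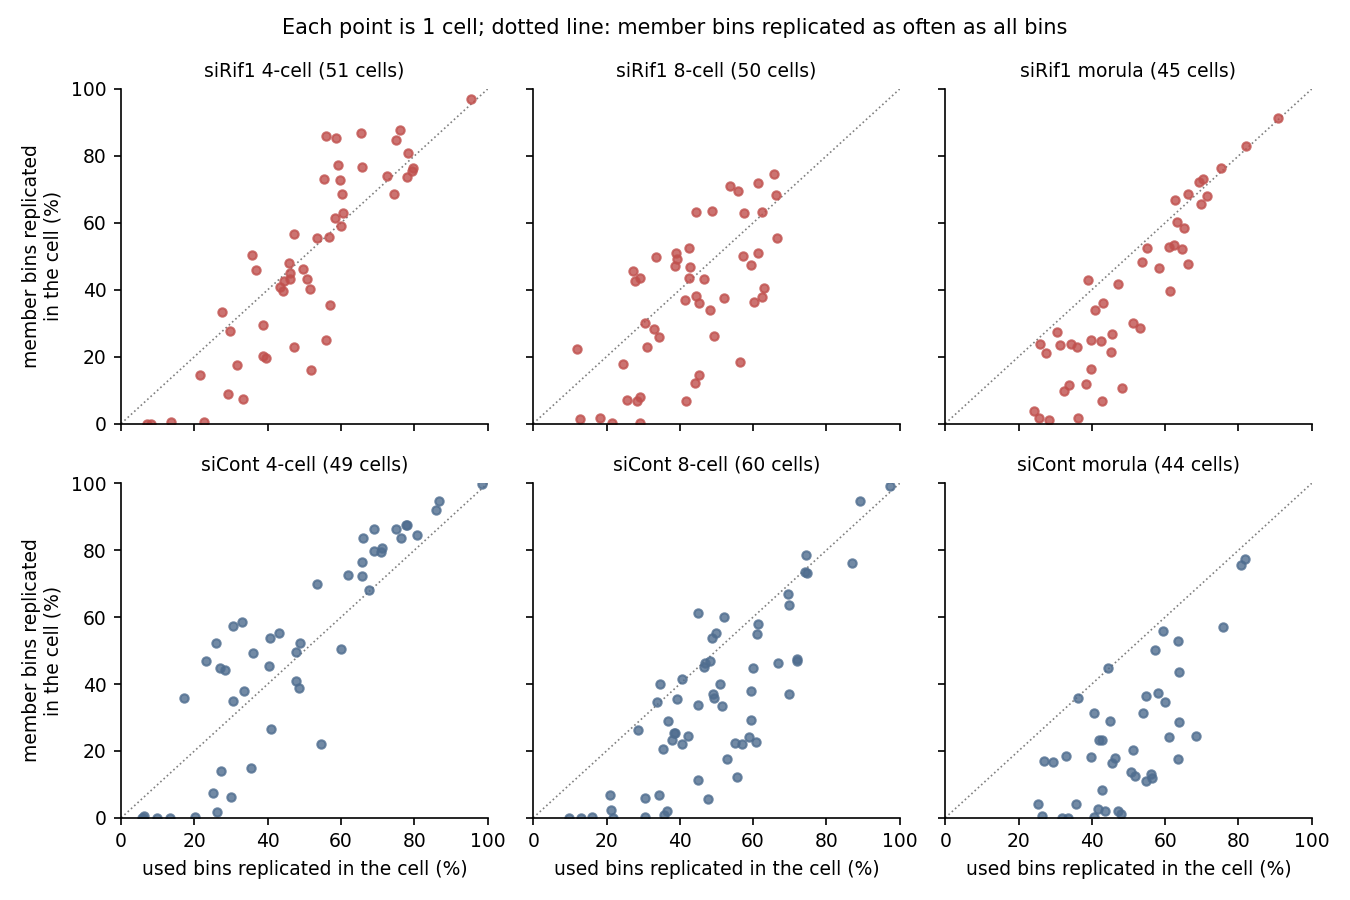
Percent of the member bins replicated in a cell (y axis) against percent of all used bins replicated in the same cell (x axis), 1 point per cell, for siRif1 (top row) and siCont (bottom row) at the 4-cell, 8-cell and morula stages. On the dotted line the members are replicated as often as all bins; 43 of 44 siCont and 37 of 45 siRif1 morula cells are below it.

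The members formed 310 domains, runs of member bins whose neighbours started at most 100 kb apart. A domain had a median of 4 member bins, 73 domains were a single bin, and the longest had 26 bins. The 129 domains of 5 or more bins held 1341 members (78.1%). All states in the tables came in runs of at least 5 measured bins away from chromosome ends, so neighbouring bins are not independent and a domain is nearer to 1 observation. Members were found on all 19 autosomes, from 0.114% of used bins on chromosome 17 (2 bins) and 0.589% on chromosome 13 to 5.85% on chromosome 6 and 7.09% on chromosome 16. They lay away from chromosome ends: 1.17% were in the first 8 Mb of a chromosome, against 3.61% of all used bins, and 0.0583% within 5 Mb of the far end, against 3.74%.

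Of the 129 longer domains, 105 had a higher mean in siRif1 than in siCont cells at the 8-cell stage. The lower-numbered siRif1 cells were higher in 76 against the lower-numbered and in 46 against the higher-numbered siCont cells, and the higher-numbered siRif1 cells in at least 114 against either. In siCont 8-cell cells 61 domains were at -15 points or less, 58 between -15 and 0, and 10 at 0 or more. In siRif1 8-cell cells 19 domains were at -15 points or less and 34 at 0 or more. The 8-cell means of siRif1 and siCont had a Pearson r of 0.537 over the 129 domains, which share cells and are given as a description. The siRif1 difference between morula and 4-cell had a median of -10.8 over these domains. It was -15 or less in 37, between -15 and 0 in 74 and 0 or more in 18, with a range of -37.7 to 14.2.

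**Figure D3:**
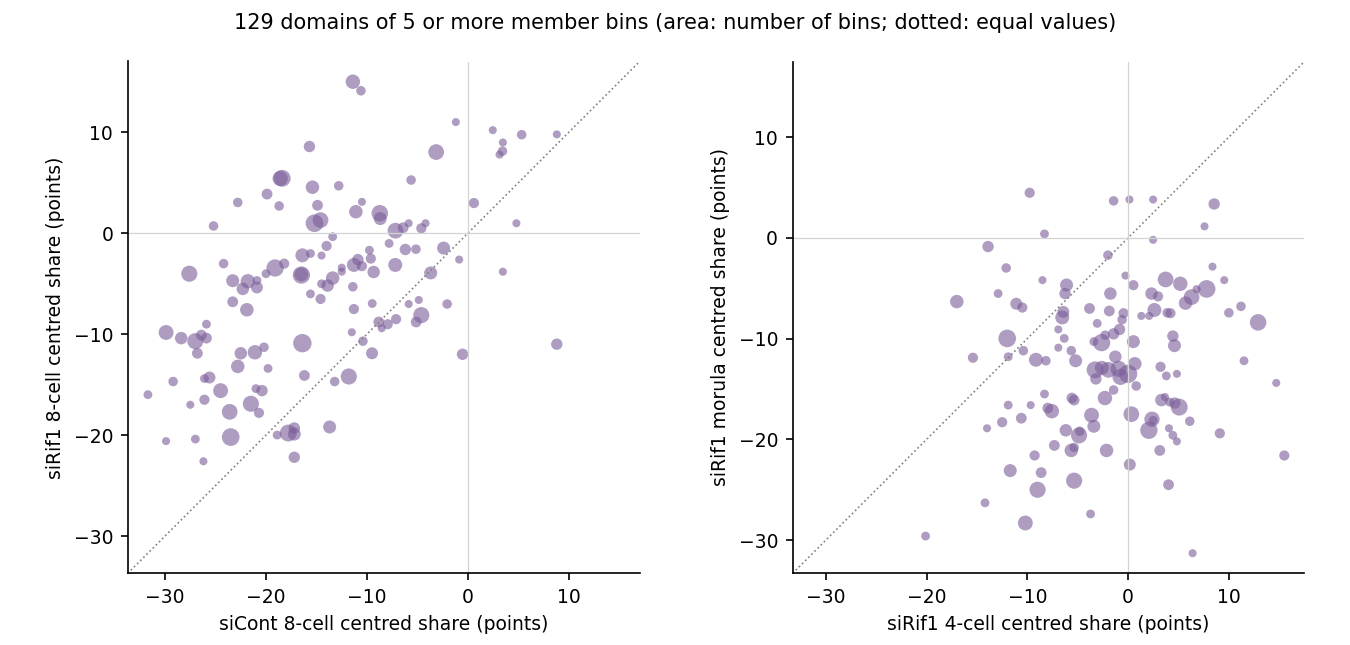
Mean centred share (points) of the 129 domains of 5 or more member bins, with point area by number of bins and equal values on the dotted line. Left, siRif1 (y axis) against siCont (x axis) at the 8-cell stage, with 105 domains above the line; right, siRif1 cells of the morula stage (y axis) against siRif1 cells of the 4-cell stage (x axis), where the 18 domains with a difference of 0 or more are on or above the line.

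In siCont morula cells the mean profile dipped at the domains, as the rule that chose their bins makes it do. Over the 54 domains of 10 or more bins, the mean profile at the centre was -1.69, -6.79 and -12.8 points at the 3 stages in siRif1 cells, against 4.68, -16.2 and -27.8 in siCont cells. At 2 Mb to the left of the centre the morula means were -2.05 in siRif1 and -3.97 in siCont. A dip was present in siRif1 morula cells at the same place and was shallower than in siCont cells, whose values chose the bins. Next to the longer domains, in the stretch from 100 to 500 kb outside their edges, 139 of 254 flanks (54.7%) were late at both control stages. Among all used bins, 13427 of 46015 were so, counted as single bins and not as the mean of a stretch. Of 126 domains with both flanks measured, 32 had such a flank on both sides, 73 on one side and 21 on none. The flank classes, like the domains, were drawn by siCont values.

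**Figure D4:**
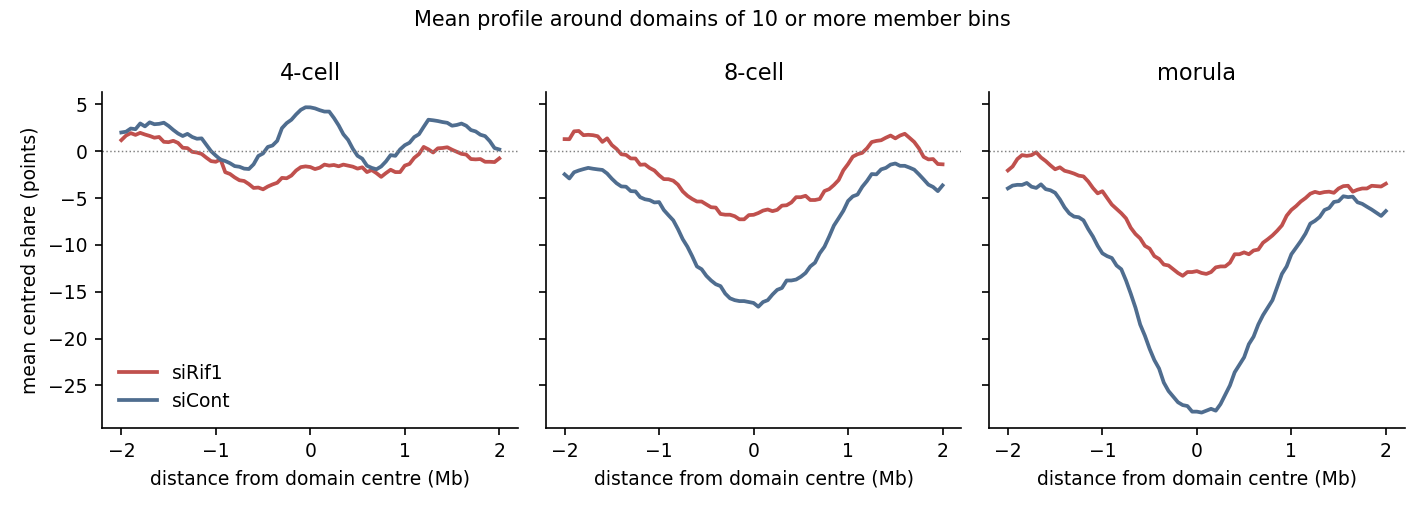
Mean centred share (points, y axis) by distance from the domain centre (Mb, x axis) for 54 domains of 10 or more member bins, at the 4-cell, 8-cell and morula stages, in siRif1 (red) and siCont cells (blue). At the centre the 8-cell means are -6.79 in siRif1 and -16.2 in siCont; the siCont values at the 4-cell and morula stages include those that chose the bins.

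The longest domain, of 26 bins at chr6:76550001-77850000 (GRCm38), contains the midpoints of Ctnna2, which links cadherins to actin in neurons, and of Lrrtm1, a synaptic adhesion protein. A cell was counted as replicated over a domain when most of its measured member bins were in the replicated state. Over the Ctnna2 domain 24 of 51, 13 of 50 and 17 of 45 siRif1 cells were replicated at the 4-cell, 8-cell and morula stages, against 26 of 49, 21 of 60 and 8 of 43 siCont cells. The siRif1 share of cells was thus lower than that of controls at the 8-cell stage and higher at the morula stage, while the centred mean of siRif1 was 5.50 points above siCont at the 8-cell stage.

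Tmeff2, which encodes a transmembrane protein with follistatin-like domains, lies in a 20-bin domain at chr1:50000001-51050000. After the Slit2 domain it had the widest 8-cell gap of the 12 longest domains. Replicated were 25 of 51, 19 of 50 and 15 of 45 siRif1 cells at the 3 stages, against 24 of 49, 11 of 60 and 4 of 44 siCont cells. At the 8-cell stage that is 38% of siRif1 cells (exact 95% interval 24.7 to 52.8%) and 18.3% of siCont cells (9.52 to 30.4%), intervals that overlap and cover counting error only. The difference of the mean centred share was 23.6 points, and between 12.6 and 34.6 over the pairings of lower-numbered and higher-numbered cells.

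Slit2, a secreted axon guidance ligand, and Pacrgl lie in a 22-bin domain at chr5:47750001-48850000, where the 8-cell gap was 23.9 points, and between 5.67 and 42.1 over those pairings. In both domains the siRif1 mean was thus above that of siCont in all 4 pairings, which differed in size. Replicated were 31 of 51, 24 of 50 and 14 of 45 siRif1 cells, against 26 of 49, 18 of 60 and 9 of 44 siCont cells. The mean centred share was 5.07, 5.43 and -16.8 points in siRif1 cells, against 4.76, -18.4 and -30.0 in siCont cells. On average over all siRif1 cells this domain was as high at the 8-cell as at the 4-cell stage, and late at the morula stage. The bin of the CpG-rich Slit2 promoter printed above had -5.36, -3.02 and -27.8 points in siRif1 cells, and 2.44, -24.2 and -33.5 points in siCont cells.

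Other long domains near neuronal adhesion genes were late in both groups by the morula stage. The domain of Chl1, a relative of the L1 adhesion protein, at chr6:102700001-103800000 was replicated in 20 of 51, 13 of 50 and 9 of 45 siRif1 cells, against 23 of 49, 17 of 60 and 5 of 43 siCont cells. That around the midpoint of Cntn6, a contactin gene, at chr6:104500001-105650000 was replicated in 22 of 51, 15 of 50 and 11 of 45 siRif1 cells, against 24 of 49, 12 of 60 and 5 of 43 siCont cells. Their siRif1 means at the morula stage, -25 and -24.1 points, were the lowest of the 12 longest domains.

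Outside neuronal genes, Kcnj2 and Kcnj16, inwardly rectifying potassium channel genes, lie at chr11:110850001-112000000. Here 23 of 50, 9 of 49 and 13 of 45 siRif1 cells were replicated, against 26 of 49, 17 of 60 and 12 of 44 siCont cells. The domain of Anxa1, a calcium-dependent phospholipid-binding protein, at chr19:19350001-20400000 was replicated in 26 of 51, 17 of 49 and 15 of 45 siRif1 cells, against 24 of 49, 27 of 60 and 8 of 44 siCont cells. In these 2 domains the siRif1 mean was below the siCont mean at the 8-cell stage, by centred differences of -2.07 and -3.50 points. The Anxa1 domain had means of -0.752, -8.12 and -13.8 points in siRif1 cells, against 1.72, -4.62 and -31.3 in siCont cells, so most of the siCont difference lay after the 8-cell stage.

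The Sgcd domain at chr11:47400001-48450000, with the gene of the muscle membrane protein delta-sarcoglycan, was replicated in 31 of 50, 20 of 49 and 18 of 45 siRif1 cells, against 25 of 49, 23 of 60 and 12 of 44 siCont cells. The domain at chr10:102100001-103250000, which holds Lrriq1, Rassf9 and the homeobox gene Alx1, was replicated in 24 of 51, 18 of 49 and 18 of 45 siRif1 cells, against 25 of 49, 16 of 60 and 7 of 44 siCont cells. In both, the uncentred share of siRif1 cells was about level between the 8-cell and morula stages, while that of siCont cells was lower at the morula stage. The centred siRif1 mean was lower at the morula stage in both. It was 1.97 and -8.39 points at the 8-cell and morula stages in the Sgcd domain, and -3.45 and -10.4 in the Lrriq1 domain.

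The Arpp21 domain, at chr9:111750001-112950000, holds the gene of a cAMP-regulated phosphoprotein. At the 4-cell stage its mean centred share was -12.0 points in siRif1 and 3.37 in siCont cells. The rule used that siCont value and so favours a lower siRif1 mean, and the difference was not tested. Over all members the mean of siRif1 minus siCont was -5.15 points at that stage. Replicated were 18 of 51, 10 of 50 and 19 of 45 siRif1 cells, against 25 of 49, 13 of 60 and 9 of 44 siCont cells. The exact intervals at the 4-cell stage, 22.4 to 49.9% in siRif1 and 36.3 to 65.6% in siCont, overlapped and cover counting error only. Of the 12 longest domains only this one had a higher siRif1 mean at the morula than at the 4-cell stage, by 2.00 points.

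The other 2 of the 12 longest domains hold no midpoint of a protein-coding gene. That at chr1:41000001-42200000 was replicated in 30 of 51, 20 of 50 and 18 of 45 siRif1 cells, against 27 of 49, 19 of 60 and 7 of 44 siCont cells. That at chr9:33350001-34500000 was replicated in 24 of 51, 18 of 50 and 13 of 45 siRif1 cells, against 24 of 49, 17 of 60 and 8 of 44 siCont cells. Both were later at the morula stage in siRif1 cells, by -12.9 and -21.1 points of centred share against the 4-cell stage.

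**Figure D5:**
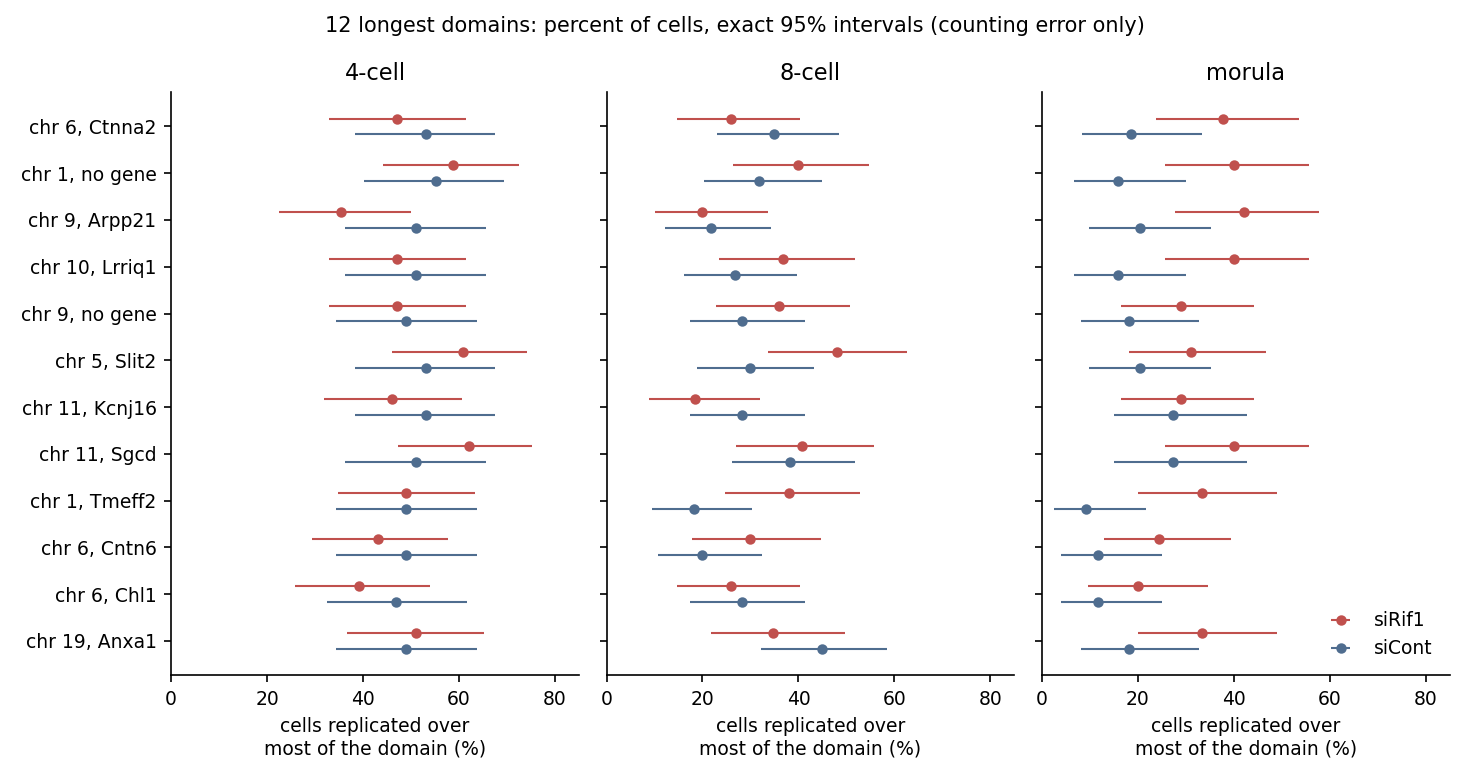
Percent of cells replicated over most of the member bins (x axis) in the 12 longest domains (y axis, labelled by chromosome and first named gene), in siRif1 (red, upper point of each pair) and siCont cells (blue, lower point) at the 3 stages. Bars are exact 95% intervals for counting error only; at the morula stage the siRif1 point is right of the siCont point in all 12 domains, with siCont values that took part in the choice.

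The domains at the ends of the siRif1 range were picked for that value, so it is given as a description. The lowest siRif1 difference between morula and 4-cell among longer domains, -37.7 points, was at chr6:3450001-3700000 with Vps50, which acts in endosomal recycling, and Hepacam2. There 29 of 51, 13 of 50 and 10 of 45 siRif1 cells were replicated, against 23 of 49, 16 of 60 and 13 of 43 siCont cells. The centred mean at the morula stage was -31.3 in siRif1 and -27.5 in siCont, so this domain was as late in siRif1 cells as in controls. The next were the domain of Gm31606 on chromosome 14 (-37.1), one on chromosome 11 inside the body of Tenm2 (-29.2), that of Mdga2, which encodes a synaptic surface protein (-28.6), and that of the sodium channel genes Scn1a and Scn9a with Ttc21b on chromosome 2 (-28.5).

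At the other end, siRif1 cells were higher at the morula than at the 4-cell stage. The domain of Lmo3, a LIM-only transcription cofactor, and Mgst1, a glutathione transferase, at chr6:138100001-138500000 differed by 14.2 points. Replicated there were 20 of 51, 17 of 50 and 24 of 45 siRif1 cells, against 23 of 49, 24 of 60 and 12 of 43 siCont cells. The domain of Asic2, an acid-sensing ion channel gene, on chromosome 11 differed by 13 points, and one on chromosome 5 with the serine protease genes Tmprss11f and Tmprss11d and the ubiquitin-activating enzyme gene Uba6 by 10.7. The domains of Ift57, a ciliary transport gene, on chromosome 16 and of Gabrb1, a GABA receptor subunit gene, on chromosome 5 differed by 9.09 and 8.70 points. All 5 had siRif1 means below the siCont mean at the 4-cell stage, which the way they were picked favours.

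The members were poor in genes, and the genes they held were long. The midpoints of 167 protein-coding genes, 0.860% of the 19410 measured, lay in member bins, which is 0.0973 genes per bin against 0.422 over all used bins and 0.154 in bins late at both control stages. When a gene was counted in every bin it overlaps, members had 0.511 genes per bin, against 0.845 over all used bins and 0.365 in bins late at both stages. By overlap the members were thus richer in genes than the bins that were late throughout. The median length of a member gene was 80.8 kb, against 18.3 kb over all used bins and 4.46 kb in bins late at both stages. Of the 167 genes 55 (32.9%) were longer than 200 kb, against 4.80% over all used bins. A long gene has its midpoint in 1 bin but spans many, and genes, like bins, are not replicates. Of the 129 longer domains, 51 had no gene midpoint and 55 had 1.

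Among 22 gene lists, the largest share in member bins was that of long neuronal adhesion and synapse genes, 9 of 56 measured (16.1%), against 0.860% of all measured genes. The list was drawn up for gene length as much as for function. All 9 were lower in siRif1 cells at the morula than at the 4-cell stage, as were 85.7% of all member bins. The 3 given here had the lowest siRif1 difference between these stages. Cntn4, a contactin gene, had 6.40, -3.02 and -23.3 points in siRif1 cells, against 0.396, -22.5 and -35.4 in siCont cells. Ctnna3, an alpha-catenin gene, had 14.2, -0.164 and -9.98 points in siRif1 cells, against 0.396, -15.9 and -19.8 in siCont cells. Tenm2, which encodes a teneurin adhesion protein, had 11.5, -10.4 and -12.2 points in siRif1 cells, against 0.396, -10.9 and -19.8 in siCont cells. Cntn4 and Ctnna3 were higher in siRif1 than in siCont at the 8-cell stage, and Tenm2 was level.

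Ion channel genes had 6 of 131 (4.58%) in member bins, against 0.860% of all measured genes. All 6 were lower in siRif1 morula than in siRif1 4-cell cells, as were 85.7% of all member bins and 51.5% of all used bins. The 3 genes given here are those of the list with the lowest siRif1 difference between morula and 4-cell. Scn9a had 4.44, -17.0 and -25.5 points in siRif1 cells, against 2.44, -17.5 and -31.2 in siCont cells, so its bin was followed closely in siRif1 cells. Scn1a, the neighbouring sodium channel gene, had 8.37, -11.0 and -18.9 points in siRif1 cells, against 2.44, -10.9 and -24.4 in siCont cells. Cacna2d1, a calcium channel subunit gene, had 0.523, 6.98 and -14.4 points in siRif1 cells, against 0.396, -10.9 and -24.4 in siCont cells. Its bin was below average in siRif1 cells only at the morula stage.

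Of the glutamate and GABA receptor genes 3 of 43 (6.98%) were in member bins, against 0.860% of all measured genes. Grm7, a metabotropic glutamate receptor gene, had -11.2, -13.0 and -12.2 points in siRif1 cells, against 0.396, -30.9 and -35.4 in siCont cells. Its siRif1 values were thus level over the stages, and Gabrb1 was described above with its domain.

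The lists of developmental or early embryonic genes had at most 1 midpoint in a member bin. Of 105 homeobox and patterning genes 1 (0.952%) was in a member bin, close to the 0.860% of all measured genes. This was Pou4f1, a factor of sensory neurons, with 4.44, -17.0 and -23.3 points in siRif1 cells and 2.44, -27.5 and -26.7 in siCont cells. None of 64 Sox, Fox and Gata genes, 46 Wnt, Bmp and Fgf ligand genes, 27 pluripotency genes, 24 trophectoderm genes, 53 replication factor genes or 81 histone genes had its midpoint there. With 0.860% of all genes in members, lists of this size would hold few or none at that rate, so these zeros set the lists apart little. The larger zinc finger list had 0 of 352, and the olfactory receptors 2 of 1019 (0.196%), Olfr338 and Olfr339 on chromosome 2. In both of these the siRif1 value was higher at the morula than at the 4-cell stage, by 8.85 and 8.59 points.

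Single members were seen in other lists. The cadherin gene Cdh20 had -3.40, -17.0 and -14.4 points in siRif1 cells, against 2.44, -12.5 and -28.9 in siCont cells. On chromosome 3 the ribosomal protein gene Rpl22l1 and the glucose transporter gene Slc2a2 lay near each other and were average in both groups at the 8-cell stage, with -1.02 and 0.979 points in siRif1 and 0.798 in siCont for both. At the morula stage they had -14.4 and -12.2 points in siRif1 cells, against -24.4 and -19.8 in siCont cells. Slc16a7, a monocarboxylate transporter gene, was late at the 8-cell stage in both groups, with -22.6 points in siRif1 and -19.2 in siCont. The interferon genes Ifna1 and Ifne shared 1 bin on chromosome 4, with -5.36, -5.02 and -7.75 points in siRif1 cells, against 0.396, -0.868 and -19.8 in siCont cells. No member was found among 57 clustered protocadherin, 94 cytochrome P450 and UGT, 192 serpin, defensin and keratin, or 35 major histocompatibility complex genes. The vomeronasal receptor and 2-cell gene lists, with 186 of 354 and 22 of 79 genes measured, also had none and are not read further. Rif1 itself, on chromosome 2, was no member and was early in both groups, with 20.1, 13 and 7.80 points in siRif1 cells, against 8.56, 17.5 and 14.2 in siCont cells.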

How the data were processed

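Single-cell states of replication were taken as deposited: the authors' tables give a state of 0, 1 or NA, with no score or other unit, for each 50-kb bin and cell of chromosomes 1 to 19. The submitters' processing notes list GRCm38, Bowtie2 2.5.1, SAMtools, Picard, bedtools and R 4.2.3 without roles. How reads became states, how cells were kept and the depth per cell are not given in the sources used here. A state of 1 was read as replicated because bins with a gene midpoint had a higher mean share of 1 in all 6 groups.

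Shares per bin and group, centring, domains and the splits by cell number were computed in Python 3.11.15 with numpy 2.4.6, pandas 2.3.3, scipy 1.17.1 and matplotlib 3.10.9, and the choice of members was tested on simulated data. With 400 simulated cells a group, more than in these groups, 100% of 200 switching bins among 4000 were recovered and 0 others were taken. The simulated states did not come in runs of bins, as the measured ones do. The simulation thus checks the computation only and cannot tell how well members are chosen in these cells. Intervals are exact 95% Clopper-Pearson intervals. Named were the 12 longest domains, the 5 lowest and 5 highest domains of 5 or more bins by siRif1 difference between morula and 4-cell, up to 3 genes of each domain, and up to 3 genes of each list, lowest siRif1 difference first. One item picked by this rule is not reported here. Genes were placed by midpoint with a RefSeq table of GRCm38.p6; promoters of chromosome 18 were not used here. The members, lists and comparisons were chosen with earlier results of these data known. Alternatives were other thresholds and cell minimums, balance over S phase, centring by cell, ranks, longer domains and cells split by number, of which the split into lower and higher numbers was added after seeing the data.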

Additional observations from a re-analysis of the deposited data

Results flagged for a closer look

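In 6 of the named domains the siRif1 cells had a higher centred share at the morula than at the 4-cell stage, the opposite of the siCont cells, whose direction the rule fixes. The siRif1 difference was 14.2 points in the Lmo3 and Mgst1 domain, against -25.1 in siCont. It was 13 in the Asic2 domain, against -21.8 in siCont, and 10.7 in the Tmprss11f, Tmprss11d and Uba6 domain, against -26.3 in siCont. It was 9.09 in the Ift57 domain (siCont -25.3), 8.70 in the Gabrb1 domain (siCont -26.0) and 2.00 in the Arpp21 domain (siCont -27.5). In the Slit2 and Pacrgl domain the siRif1 difference between the 8-cell and 4-cell stages was 0.366 points, against -23.2 in siCont. These differences between the groups were not tested, and 5 of the 7 domains were named for a high siRif1 difference.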

How the results depend on the processing

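A minimum of 20 cells and centring by cell gave the same members and the same or nearly the same values. Of 93 other recomputed values, 76 stayed within the spread over autosomes (within 1.5 times for the number of members). Members from lower-numbered cells read in higher-numbered ones numbered 4423, with siRif1 means of -11.3 at the 4-cell and 1.76 at the 8-cell stage, a siRif1 difference between morula and 4-cell of -3.49, and a siRif1 minus siCont gap of 15.6 at the 8-cell stage. The reverse gave 825 members, siRif1 means of 3.84, -11.7 and -7.02 at the 3 stages, a gap of -0.746, and 79.2% of members below 0 in siCont 8-cell cells. With a 4-cell threshold of 5 points, 302 members were left and their mean siRif1 share at the 4-cell stage was 0.206 in place of -2.16. With members from odd-numbered cells read in even-numbered cells that share was -5.37; the reverse split, chosen after seeing the data, gave -1.32. On percentile ranks the siRif1 difference between morula and 4-cell was -16.4 rank points, and siCont at the 8-cell stage was 21.8 below the middle rank (-21.8). Genes counted in every bin they overlap gave 0.511 per member bin in place of 0.0973. The cause was not tested; the scale of ranks and the way of counting genes differ by construction. Which bins are members also depended on the cells. Balancing the cells over S phase gave 1416 members, of which 982 were among the 1716, and the odd-numbered cells gave 1895, of which 773 were. No paired analysis was possible because no result comes from a test and the labels pair no cells across groups.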
